A study of Mus musculus with 16 samples.

Results

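The 10 genes described here belong to myostatin and bone morphogenetic protein (BMP) signaling in mouse skeletal muscle. They are *Mstn*, *Gdf5*, *Acvr2a*, *Acvr2b*, *Fst*, *Fstl3*, *Smad7*, *Id1*, *Id2* and *Id3*, chosen by name, and all 10 were found among the 24421 genes counted in each muscle. RNA was sequenced from the gastrocnemius (Gas), which consists mostly of fast-twitch fibers, and the soleus (Sol), which is rich in slow-twitch fibers. Each muscle had 3 wild type (WT) and 5 LSD1-mKO libraries (16 altogether). The study asked what the histone demethylase LSD1, encoded by *Kdm1a*, does in fast and slow muscle under a glucocorticoid.

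The mice were C57BL/6 males. LSD1-mKO mice carried *Lsd1* flox/flox and the ACTA1-CreERT2 transgene, and WT mice were *Lsd1*-floxed mice without the Cre. Both genotypes received tamoxifen at 75 mg/kg on 5 days from 8 weeks of age and dexamethasone (Dex) at 1 mg/kg on 7 days, the first of them the 4th day of tamoxifen, so no muscle without Dex enters any comparison. The human *ACTA1* promoter drives the Cre in differentiating and differentiated muscle cells, and LSD1 remains in the other cells of the tissue. In bulk RNA, fewer cells of a type and less RNA per cell cannot be told apart. The study speaks of mice in each genotype for its Sol data, with fewer LSD1-mKO mice than there are LSD1-mKO Sol libraries here. The labels tie no library to an animal, so p-values measure the spread between these libraries, which may in part be technical.

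Between 10130415 and 24576377 reads per library were assigned to genes, and 0 reads of a gene allow a true level of up to 3 reads, which came to 0.103 to 0.340 CPM (edgeR's depth-scaled read counts, with TMM factors). These limits and the counting intervals given further on cover counting error only. *Kdm1a* was 41.8 ± 5.70 CPM (SD, n = 3) in WT Gas and 14.2 ± 2.19 (n = 5) in LSD1-mKO Gas, and 34.2 ± 0.752 in WT Sol and 10.9 ± 1.72 in LSD1-mKO Sol. It fell by 1.56 on the log2 scale in Gas (SE 0.178, adjusted p = 0.0177, edgeR quasi-likelihood test) and by 1.66 in Sol (SE 0.143, adjusted p = 0.000574), and the genotypes did not overlap in either muscle. In Gas the log2 difference was -1.65 to -1.44 with any one library left out, but the adjusted p exceeded the threshold in 6 of 8 such fits (0.0549 to 0.134), those without WT replicate 1 or 2 or without LSD1-mKO replicate 1, 2, 4 or 5. The summed CPM of 9 slow fiber genes was 1174 to 2557 in WT Gas and 31519 to 37184 in WT Sol. That of 10 fast fiber genes was 174969 to 223300 in WT Gas and 56436 to 69960 in WT Sol. In LSD1-mKO the slow sum was 1875 to 2938 in Gas and 27279 to 35430 in Sol. The fast sum there was 136039 to 187560 in Gas and 31822 to 67883 in Sol. The mean log2 CPM of ribosomal protein genes stood out in 3 libraries, at 8.81 in WT Gas replicate 3, at 8.07 in LSD1-mKO Gas replicate 5 and, for Sol, at 7.43 in WT replicate 2, against 7.23 to 7.60 in the other Gas and 6.58 to 6.99 in the other Sol libraries. Without one of these 3 libraries, some differences of the 10 genes changed in size or sign, and those values stand beside the results they touch. The summed CPM of 6 adipocyte markers was 1296 in WT Gas replicate 3, against 434 and 505 in WT Gas replicates 1 and 2. That of 7 macrophage and neutrophil markers was 304, against 151 and 179. Whether these sums bear on the values of the 10 genes was not tested.

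Myostatin, encoded by *Mstn*, is a secreted factor of the TGF-beta family that limits muscle mass. It binds the activin type II receptors encoded by *Acvr2a* and *Acvr2b* and signals through Smad2 and Smad3, while follistatin (*Fst*) and follistatin-like 3 (*Fstl3*) bind and block it outside the cell. BMP ligands such as the one encoded by *Gdf5* signal through Smad1, Smad5 and Smad8, induce the *Id* genes and favor muscle mass, and *Smad7* encodes an inhibitory Smad that dampens such signals.

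*Mstn* lies on chromosome 1 (chr1:53061640-53068079, plus strand, GRCm38, GENCODE annotation) and *Fstl3* on chromosome 10 (chr10:79777272-79782630, plus strand). They were the genes with the largest difference between muscles and the largest difference between genotypes among the 10, and for that reason the 250 bases before their RefSeq starts are shown. The sequences are from RefSeq, build GRCm38.p6, at chr1:53061390-53061639 and chr10:79777024-79777273, both on the plus strand, 5′ to 3′. Capitals mark E-boxes (CANNTG, the motif of muscle basic helix-loop-helix factors, which Id proteins keep from binding DNA).
Mstn: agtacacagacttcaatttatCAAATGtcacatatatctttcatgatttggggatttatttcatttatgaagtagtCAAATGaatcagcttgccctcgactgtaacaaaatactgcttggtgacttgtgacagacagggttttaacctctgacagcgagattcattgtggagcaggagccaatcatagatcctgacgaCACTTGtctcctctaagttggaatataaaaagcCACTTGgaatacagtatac
Fstl3: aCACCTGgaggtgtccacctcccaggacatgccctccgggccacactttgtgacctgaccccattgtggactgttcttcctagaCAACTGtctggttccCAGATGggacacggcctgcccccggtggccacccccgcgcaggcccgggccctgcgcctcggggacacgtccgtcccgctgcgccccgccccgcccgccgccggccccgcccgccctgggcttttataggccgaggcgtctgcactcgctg

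The *Mstn* window held 4 E-boxes, which began 229, 174, 52 and 19 bases before the start, and had a GC content of 38.4%. The *Fstl3* window held 3, which began 249, 166 and 151 bases before the start, and had a GC content of 71.2%. Of 32851 mouse windows of 250 bases, 66.2% held at least 1 E-box on either strand. Each window also held 2 matches to the Smad motif CAGAC or its complement GTCTG, found in 42.2% of all windows, and 1 match to TATAAA or its complement TTTATA 29 bases before the start, found in 12.4%. In the *Fstl3* window, the GTCTG that began 161 bases before the start shared a base with the E-box that began at 166. Neither held the BMP-responsive motif GGCGCC, found in 9.59% of all windows. Such matches describe the letters only. Starts on chromosome 18, where *Smad7* lies, were left out. A start was matched for 6 of the 10 genes (*Mstn*, *Acvr2a*, *Acvr2b*, *Fstl3*, *Id2* and *Id3*).

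**Figure D1:**
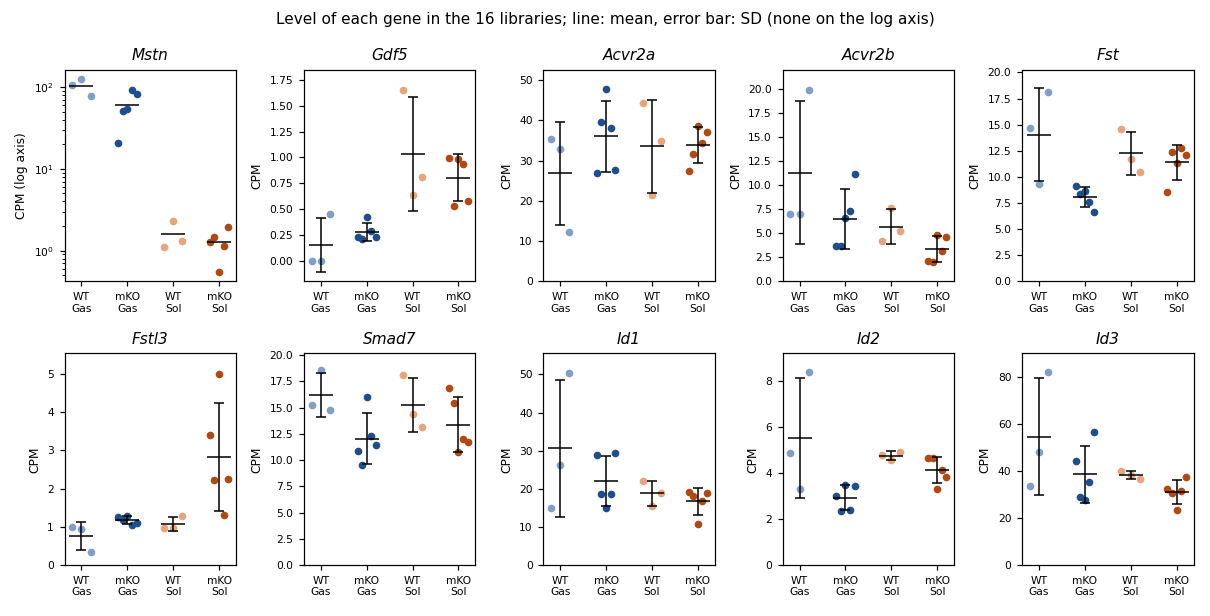
CPM of each of the 10 genes (y axis, log scale for *Mstn*) in the 4 groups (x axis), with 1 point per library, a line at the mean and error bars of 1 SD (none on the log axis). *Mstn* is between 21.0 and 124 CPM in the 8 Gas libraries and between 0.555 and 2.32 in the 8 Sol libraries, and *Fstl3* is highest in LSD1-mKO Sol.

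Per length of the gene's exons, the 10 genes fell into distinct ranges of level. In WT Gas the mean CPM per kb was 38.0 for *Mstn*, 30.5 for *Id3* and 26.4 for *Id1*, and between 2.27 and 4.71 for *Acvr2a*, *Smad7*, *Fst*, *Acvr2b* and *Id2*. *Fstl3* followed at 0.311 and *Gdf5* at 0.0652. In WT Sol, *Id3* at 21.5 and *Id1* at 16.2 CPM per kb led, *Acvr2a*, *Smad7*, *Fst*, *Id2* and *Acvr2b* stood between 1.45 and 5.89, and *Mstn* at 0.588 was close to *Gdf5* at 0.445 and *Fstl3* at 0.439. *Mstn* was thus the first of the 10 in WT Gas and the eighth in WT Sol. Within WT Gas the order of *Mstn*, *Id3* and *Id1* lay within the spread between libraries, since the per-length SD of *Id3* alone was 13.9 CPM per kb.

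The comparison of Sol with Gas asks how the genes differ between slow-rich and fast muscle within a genotype. It was made in 1 fit of the 16 libraries, with no pairing of libraries. In WT muscle, 2 of the 10 genes passed the test: *Mstn*, which was lower in Sol, and *Gdf5*, which was higher in Sol. Of all 13749 genes tested, 2337 passed, or 17%, 8.75% higher and 8.25% lower in Sol. In LSD1-mKO muscle, 3 passed: *Mstn* lower and *Gdf5* and *Fstl3* higher in Sol, against 3367 of all genes, or 24.5%, 12.9% higher and 11.6% lower. The same genes had no overlap between muscles, 2 of 10 in WT against 30.3% of all genes and 3 of 10 in LSD1-mKO against 20.9%. The counts of each muscle came as a table of their own, so a difference in library preparation between muscles, if there was one, cannot be told apart from muscle. The mean log2 CPM of ribosomal protein genes was 7.23 to 8.81 in Gas and 6.58 to 7.43 in Sol, so it largely goes with muscle. A fit between muscles with it as covariate may take up part of the muscle difference itself and cannot fully separate them.

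*Mstn* in WT Gas was 106, 124 and 78.4 CPM in replicates 1 to 3. In WT Sol it was 1.12, 2.32 and 1.33 CPM. Every Gas library was above every Sol library by a wide margin. This gave a log2 difference of -6.03 (SE 0.526, 95% interval -7.14 to -4.92, adjusted p = 1.77e-06, edgeR), 65.4-fold lower in Sol, and its size exceeded that of 99.9% of the genes tested. Leaving out any one of the 16 libraries gave -6.39 to -5.83.

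LSD1-mKO muscle showed the same order. Replicates 1 to 5 held 21.0, 51.6, 53.7, 91.1 and 81.1 CPM of *Mstn* in Gas and 1.27, 1.47, 0.555, 1.14 and 1.94 CPM in Sol. The lowest Gas library, replicate 1, was still far above the highest Sol library. Here the log2 difference was -5.56 (SE 0.400, 95% interval -6.40 to -4.71, adjusted p = 1.11e-07, edgeR), 47.1-fold lower in Sol, and -5.77 to -5.37 with any one library left out. The Sol values of *Mstn* rest on 13 to 37 reads per library.

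*Gdf5* (chr2:155941023-155945367, minus strand), a BMP-type ligand best known from joints and tendon, was the gene with the fewest reads. WT Gas libraries held 0, 0 and 4 reads, and LSD1-mKO Gas libraries 5, 3, 6, 3 and 4. In Sol there were 31, 9 and 14 reads in WT and 29, 9, 23, 23 and 11 in LSD1-mKO. Both genotypes had more *Gdf5* CPM in every Sol library than in any Gas library. Reads that overlap *Gm15557* on the other strand, a gene not counted in these tables, would be included.

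Pooled over libraries, *Gdf5* had 54 reads in WT Sol and 4 in WT Gas, a ratio of 12.1 after scaling (exact 95% counting interval 4.44 to 45.8). In LSD1-mKO it had 95 and 21 reads, a ratio of 3.12 (1.93 to 5.26). The fitted log2 difference in WT was 3.33 (SE 0.819, adjusted p = 0.0103, edgeR), and the call was lost without WT Gas replicate 1 (2.55, adjusted p = 0.0530) and without WT Sol replicate 1 (2.79, adjusted p = 0.0665). Without WT Gas replicate 3 the other WT Gas libraries held no *Gdf5* read, and the fitted value of 7.28 (adjusted p = 0.000320) then depends on the prior count. In LSD1-mKO it was 1.56 (SE 0.523, adjusted p = 0.0387) and was no call with Gas and Sol libraries of the same number blocked (1.53, adjusted p = 0.0689). It was also no call without any one of LSD1-mKO Gas replicates 1, 2, 4 and 5, WT Sol replicate 3 or LSD1-mKO Sol replicates 1, 3 and 4 (adjusted p = 0.0535 to 0.0793), with no filter on low counts (0.0567) or with the ribosomal covariate (0.0693).

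*Fstl3*, a secreted antagonist of myostatin and activins, was 1.26, 1.17, 1.28, 1.05 and 1.09 CPM in LSD1-mKO Gas and 3.4, 2.24, 4.99, 1.31 and 2.26 CPM in LSD1-mKO Sol. The 5 Gas libraries lay within a narrow band and all Sol libraries were above it, replicate 4 only just. The Gas values rest on 11 to 27 reads per library and the Sol values on 32 to 117. These are too few reads to take the narrow band as a trait of the gene. On the log2 scale the difference was 1.27 (SE 0.320, adjusted p = 0.00788, edgeR), 2.42-fold higher in Sol, and it remained a call without any one of the 16 libraries (0.95 to 1.44). With ribosomal protein level as covariate it was 1.04 with an adjusted p of 0.0628. Between WT muscles the log2 difference was 0.41 (SE 0.458, adjusted p = 0.573).

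The other 8 genes in WT had log2 differences from -0.97 for *Acvr2b* to 0.41 for *Fstl3*, with adjusted p from 0.175 to 0.811. Without WT Gas replicate 3 they ran from -0.33 for *Acvr2b* to 0.19 for *Id2*, and *Acvr2a*, *Fst* and *Id2* changed sign. With ribosomal protein level as covariate *Acvr2b* had 0.22 and *Id1* 0.097, also a change of sign. Leaving out WT Gas replicate 1 brought *Id1* to -1.02 with an adjusted p of 0.0470. In LSD1-mKO, the type II receptor gene *Acvr2b* had a log2 difference of -0.96 (SE 0.378, adjusted p = 0.0740), and it passed with same-numbered libraries blocked (-0.93, adjusted p = 0.0260), by DESeq2 (adjusted p = 0.0376) and without WT Gas replicate 3 or LSD1-mKO Gas replicate 1 or 2 (-1.11 to -0.98, adjusted p = 0.0311 to 0.0497). With ribosomal protein level as covariate its log2 difference was -0.30 (adjusted p = 0.517). *Fst* had a log2 difference of 0.49 (SE 0.179, adjusted p = 0.0532), and passed without WT Gas replicate 2 or 3 or LSD1-mKO Sol replicate 1 (adjusted p = 0.0279 to 0.0374) and by DESeq2, limma voom and the ribosomal covariate (0.0352 to 0.0482). *Id2* had 0.48 (SE 0.219, adjusted p = 0.115), and passed by limma voom (0.0105) and with the covariate (0.00963). The remaining *Acvr2a*, *Smad7*, *Id1* and *Id3* had differences from -0.41 to 0.15, with adjusted p from 0.299 to 0.832. With the covariate *Acvr2a* had -0.62 and was a call (adjusted p = 0.00774).

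**Figure D2:**
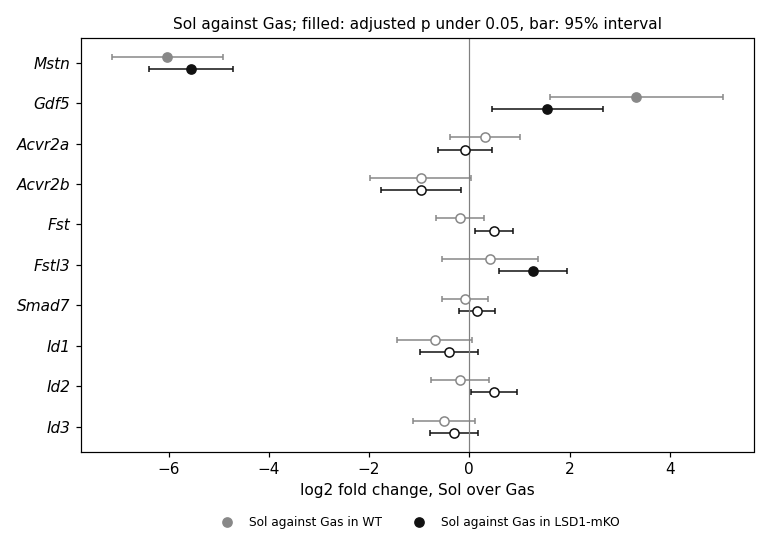
Log2 fold change of Sol over Gas (x axis) for the 10 genes (y axis) in WT (grey) and LSD1-mKO (black), with 95% intervals and filled points where the adjusted p was under 0.05. *Mstn* stands at -6.03 and -5.56, *Gdf5* at 3.33 and 1.56, and the other genes within 1.3 of 0.

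The ratio of the antagonist *Fst* to *Mstn*, per kb of exon, was 0.0440 to 0.136 in WT Gas and 0.0480 to 0.257 in LSD1-mKO Gas. It was 2.98 to 7.63 in WT Sol and 3.66 to 12.0 in LSD1-mKO Sol. No Gas library reached the lowest Sol ratio, and the ranges of the genotypes overlapped within each muscle. *Gdf11*, the nearest relative of *Mstn* among the ligands, was named here after its values were seen. Its log2 difference between WT muscles was -1.82 (adjusted p = 0.0129, edgeR), and the call was lost without WT Gas replicate 2 (-1.32, adjusted p = 0.0698) or WT Sol replicate 3 (-1.61, adjusted p = 0.0766). Between LSD1-mKO muscles *Gdf11* was no call. Between genotypes in Gas it was called by limma voom but not by edgeR or DESeq2. The median per-length ratio of *Mstn* to *Gdf11* was 38.3 in WT Gas, 43.3 in LSD1-mKO Gas, 2.66 in WT Sol and 1.59 in LSD1-mKO Sol.

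The profile of *Mstn* over the 16 libraries was compared with those of all 13749 genes by the root mean square difference of centred log2 CPM. The 5 nearest were *Six2* at 0.706, *Pvalb* at 0.832, *9530091C08Rik* at 1.04, *Pfkfb3* at 1.05 and *1700001O22Rik* at 1.05, against a median of 2.89 over all genes. *Six2* encodes a homeobox transcription factor and *Pvalb* the calcium buffer parvalbumin of fast fibers. *Six2* was 17.7 ± 1.69 CPM in WT Gas and 0.556 ± 0.277 in WT Sol. *Pvalb* had a mean of 14679 CPM in WT Gas and 265 in WT Sol. The log2 difference of Sol over Gas in WT was -5.01 for *Six2* and -5.79 for *Pvalb*, and it enters this measure for every gene.

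LSD1-mKO was compared with WT within each muscle, which asks whether the deletion of *Lsd1* in fibers changed these genes under Dex. None of the 9 genes that could be tested in Gas was called by the edgeR quasi-likelihood test, against 4 of 13040 genes or 0.0307%. *Gdf5* had too few reads in Gas to be tested. Of the 9, 2 had an unadjusted p under 0.05, *Fst* and *Id2*, against 9.06% of all genes. DESeq2, the edgeR exact test and limma voom also called 0 of the 9, although they called 132, 103 and 340 genes in all.

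None of the 10 genes in Sol was called by the quasi-likelihood test either, against 129 of 13342 genes or 0.967%. *Fstl3* and *Acvr2b* had an unadjusted p under 0.05, 2 genes, against 15.5% of all genes. DESeq2 and the edgeR exact test each called 1, *Fstl3*, and limma voom called 0. In Gas 7 of the 9 had a lower fitted value in LSD1-mKO, against 48.8% of all genes, and in Sol 8 of 10 did, against 51.8%. These counts describe signs and carry no test.

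**Figure D3:**
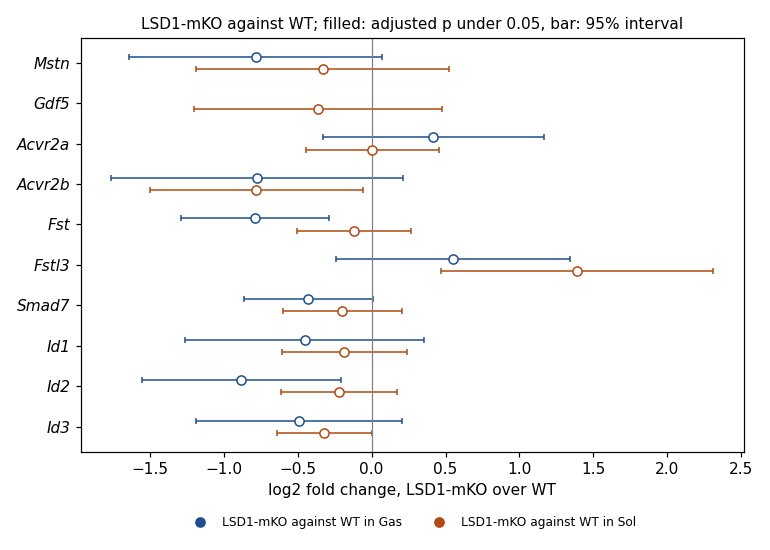
Log2 fold change of LSD1-mKO over WT (x axis) for the 10 genes (y axis) in Gas (blue) and Sol (orange), with 95% intervals. No point is filled, since no adjusted p was under 0.05, and the largest values are 1.39 for *Fstl3* in Sol and -0.88 for *Id2* in Gas.

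Among the ligands, *Mstn* in Gas was 103 ± 23.1 CPM in WT and 59.7 ± 27.6 in LSD1-mKO, and the ranges overlapped, with LSD1-mKO replicates 4 and 5 above WT replicate 3. The log2 difference was -0.79 (SE 0.385, 95% interval -1.64 to 0.068, adjusted p = 0.555, edgeR). In Sol, where it was low, *Mstn* was 1.59 ± 0.638 CPM in WT and 1.28 ± 0.505 in LSD1-mKO. Its log2 difference was -0.33 (95% interval -1.19 to 0.52, adjusted p = 0.742), and 0.040 without WT Sol replicate 2. *Gdf5* in Sol was 1.03 ± 0.548 CPM in WT and 0.805 ± 0.231 in LSD1-mKO, with a log2 difference of -0.36 (95% interval -1.20 to 0.48) that became 0.17 without WT Sol replicate 1.

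*Acvr2a* (chr2:48814109-48903269, plus strand) and *Acvr2b* (chr9:119402118-119434995, plus strand) encode the type II receptors that myostatin and activins share. *Acvr2a* was 35.4, 32.8 and 12.1 CPM in WT Gas and 26.8, 39.6, 47.8, 38.2 and 27.7 CPM in LSD1-mKO Gas. *Acvr2b* was 7.02, 6.98 and 19.9 CPM in WT Gas and 3.65, 3.65, 6.61, 7.34 and 11.1 CPM in LSD1-mKO Gas. WT Gas replicate 3 was the lowest of the 16 libraries in *Acvr2a* and the highest in *Acvr2b*. The per-length ratio of *Acvr2a* to *Acvr2b* was 0.422 in that library, and its median was 3.24 in WT Gas, 5.0 in LSD1-mKO Gas, 4.61 in WT Sol and 7.47 in LSD1-mKO Sol.

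In Gas the log2 difference between genotypes was 0.42 for *Acvr2a* (95% interval -0.33 to 1.17, adjusted p = 0.659, edgeR), and 0.088 without WT Gas replicate 3. For *Acvr2b* it was -0.78 (95% interval -1.76 to 0.21, adjusted p = 0.573), and -0.11 without that library. In Sol, *Acvr2b* was 4.17, 7.65 and 5.21 CPM in WT and 2.06, 2.0, 4.78, 3.19 and 4.62 CPM in LSD1-mKO, and the groups overlapped. Its log2 difference there was -0.78 (SE 0.328, 95% interval -1.50 to -0.061, adjusted p = 0.281), and -0.50 without WT Sol replicate 2. *Acvr2a* in Sol was 33.5 ± 11.5 CPM in WT and 33.8 ± 4.46 in LSD1-mKO, a log2 difference of 0.0044 (95% interval -0.44 to 0.45) that was -0.23 without WT Sol replicate 2. It was -0.050, -0.0011 and -0.024 without LSD1-mKO Sol replicate 3, 4 or 5. Exons of *Acvr2a* overlap *Orc4* on the opposite strand, so reads there are uncertain.

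*Fst* (chr13:114452290-114458951, minus strand) encodes follistatin, which binds myostatin and activins. In Gas it was 14.7, 9.28 and 18.1 CPM in WT and 9.12, 8.33, 8.67, 7.63 and 6.60 CPM in LSD1-mKO. All 5 LSD1-mKO libraries were below all 3 WT libraries, although LSD1-mKO replicate 1 and WT replicate 2 were close. The log2 difference was -0.79 (SE 0.226, 95% interval -1.29 to -0.29, unadjusted p = 0.00563, adjusted p = 0.417, edgeR), and -0.56 without WT Gas replicate 3. *Fst* and *Fstl3* were the 2 of 9 tested genes with no overlap in Gas, against 6.95% of all genes.

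In Sol the genotypes overlapped in *Fst*, with 14.5, 11.7 and 10.5 CPM in WT and 8.50, 12.4, 11.3, 12.7 and 12.1 CPM in LSD1-mKO. The difference was -0.12 on the log2 scale (95% interval -0.50 to 0.27, adjusted p = 0.804), and 0.029 without WT Sol replicate 1. An antisense gene on the other strand of *Fst*, *Gm47040*, was not counted in these tables, so its reads cannot be told apart from those of *Fst*.

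*Fstl3* in Sol was 0.962, 0.983 and 1.27 CPM in WT and 3.4, 2.24, 4.99, 1.31 and 2.26 CPM in LSD1-mKO. These values rest on 14 to 22 reads per library in WT and 32 to 117 in LSD1-mKO. The groups did not overlap, 1 of 10 genes against 10.8% of all genes, but LSD1-mKO replicate 4 was near the highest WT library and LSD1-mKO replicate 3 well above the rest. The log2 difference was 1.39 (SE 0.420, 95% interval 0.47 to 2.31, unadjusted p = 0.00661, adjusted p = 0.143, edgeR), larger in size than for 98.3% of the genes tested. It was 1.09 to 1.58 with any one library left out. The adjusted p was 0.0300 by DESeq2 and 0.0435 by the edgeR exact test, and 0.0300 to 0.271 over all alternatives run.

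The same gene in Gas was 0.995, 0.946 and 0.340 CPM in WT, the last from 3 reads, and 1.05 to 1.28 CPM in LSD1-mKO, from 11 to 27 reads. Here too the groups did not overlap. Its log2 difference was 0.55 (95% interval -0.24 to 1.34, adjusted p = 0.601), and 0.28 without WT Gas replicate 3. The exons of *Fstl3* overlap *Prss57*, which had at most 6 reads in a library. The median per-length ratio of *Fst* to *Fstl3* was 7.88 in WT Gas, 3.79 in LSD1-mKO Gas, 6.36 in WT Sol and 2.85 in LSD1-mKO Sol.

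*Smad7*, on chromosome 18, encodes an inhibitory Smad that blocks signaling at the receptors. It was 15.2, 18.6 and 14.7 CPM in WT Gas and 10.9, 9.57, 16, 12.3 and 11.4 CPM in LSD1-mKO Gas. Only LSD1-mKO replicate 3 reached the WT range. The log2 difference was -0.43 (95% interval -0.87 to 0.0083, adjusted p = 0.555, edgeR). In Sol, *Smad7* was 15.2 ± 2.59 CPM in WT and 13.4 ± 2.65 in LSD1-mKO, a log2 difference of -0.20 (95% interval -0.60 to 0.21, adjusted p = 0.661).

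*Id1* (chr2:152736251-152737410, plus strand), *Id2* (chr12:25093799-25097140, minus strand) and *Id3* (chr4:136143497-136145755, plus strand) are induced by BMP signaling, and the proteins they encode bind basic helix-loop-helix factors such as MyoD partners and hold back differentiation. *Id1* in WT Gas was 15.1, 26.3 and 50.4 CPM, and in LSD1-mKO Gas 28.9, 18.7, 14.8, 18.6 and 29.4 CPM. *Id3* was 33.7, 48.2 and 82.1 CPM in WT Gas and 44.2, 28.9, 27.8, 35.6 and 56.7 CPM in LSD1-mKO Gas. *Id2* was 4.87, 3.31 and 8.39 CPM and 2.99, 2.34, 3.48, 2.38 and 3.44 CPM. WT Gas replicate 3 was the highest of the 16 libraries in all 3 genes, and LSD1-mKO Gas replicate 5 the second highest in *Id1* and *Id3*.

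For *Id1* the log2 difference between genotypes in Gas was -0.45 (95% interval -1.26 to 0.35, adjusted p = 0.659, edgeR), and 0.10 without WT Gas replicate 3. For *Id3* it was -0.49 (95% interval -1.19 to 0.21, adjusted p = 0.601), and -0.078 without that library. *Id2* had -0.88 (SE 0.303, 95% interval -1.55 to -0.21, unadjusted p = 0.0152, adjusted p = 0.471), and -0.47 without it.

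In Sol the *Id* genes varied less. *Id1* was 18.8 ± 3.20 CPM in WT and 16.7 ± 3.46 in LSD1-mKO, *Id2* 4.77 ± 0.182 and 4.12 ± 0.567, and *Id3* 38.5 ± 1.81 and 31.1 ± 5.13. Their log2 differences were -0.18, -0.22 and -0.32, with 95% intervals of -0.61 to 0.24, -0.62 to 0.17 and -0.64 to 0.0048 and adjusted p of 0.707, 0.608 and 0.330 (edgeR). In every library the per-length ratio of *Id3* to *Id1* lay between 0.992 and 1.61. Over the 16 libraries *Id3* was also the gene of the 13749 with the profile nearest to that of *Id1*, at a root mean square log2 difference of 0.181. It was followed by *Bet1* at 0.245, *Med7* at 0.263, *Klf2* at 0.269 and *Tceb1* at 0.271, against a median of 0.650 over all genes. Within WT Gas the highest library was far above the median in *Bet1* (54.4 against 26.2 CPM), *Med7* (44.9 against 17.4) and *Tceb1* (144 against 71.1). *Id1* and *Id3* also had 1 such high WT Gas library, so single libraries weigh on this ranking.

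**Figure D4:**
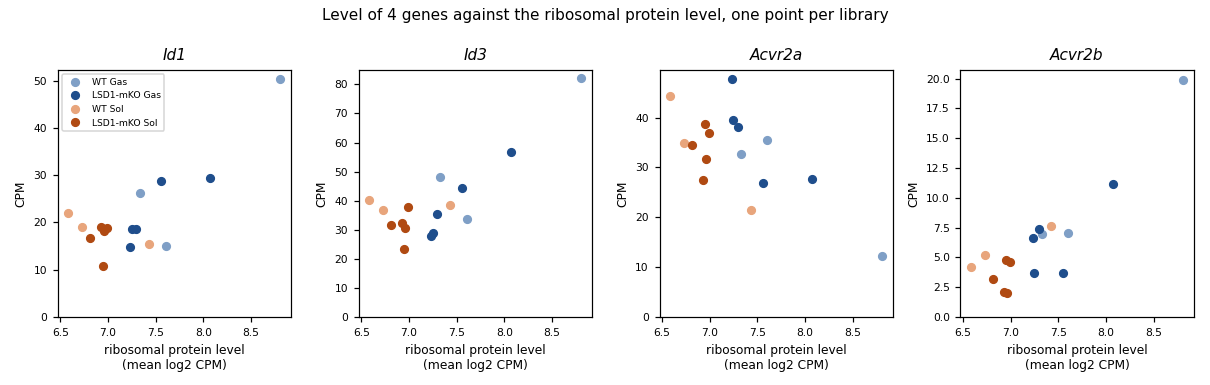
CPM of *Id1*, *Id3*, *Acvr2a* and *Acvr2b* (y axes) against the mean log2 CPM of ribosomal protein genes (x axes), with 1 point per library colored by group. The library at 8.81, WT Gas replicate 3, is the highest in *Id1*, *Id3* and *Acvr2b* and the lowest in *Acvr2a*.

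Marker lists of other kinds were summed per library. The summed CPM of 12 denervation-responsive muscle genes was 191 to 209 in WT Gas and 273 to 653 in LSD1-mKO Gas, and 207 to 303 in WT Sol and 394 to 578 in LSD1-mKO Sol. The genotypes did not overlap in either muscle. Of this list, 0 of 11 tested genes passed in Gas and 2 of 12 rose in Sol by the test, against 0.0307% and 0.967% of all genes called. In Gas 5 of the 11 had an unadjusted p under 0.05, against 9.06% of all genes. The summed CPM of 8 fibroblast markers was 674 to 945 in WT Gas and 352 to 673 in LSD1-mKO Gas, with no overlap but almost no gap. It was 485 to 1012 and 466 to 1837 in Sol, where the genotypes overlapped. In Gas all 8 were lower in LSD1-mKO, against 48.8% of all genes. None passed the test, and 3 of 8 had an unadjusted p under 0.05 (edgeR), against 9.06% of all genes. The summed CPM of 10 endothelial markers was 569 to 696 in WT Gas and 479 to 655 in LSD1-mKO Gas, and 758 to 847 and 641 to 853 in Sol, with an overlap in both muscles. The summed CPM of 6 tendon markers was 334 to 432 in WT Gas and 431 to 622 in WT Sol (medians 416 and 530). In LSD1-mKO it was 257 to 339 in Gas and 167 to 781 in Sol (medians 324 and 558), so the muscles overlapped in both genotypes. No gene of these lists was without a read in a whole group. Glucocorticoid response genes, 12 in number, summed to 4916 to 14806 CPM in Gas and 1631 to 3394 in Sol. In WT 6 and in LSD1-mKO 10 of the 12 were lower in Sol by the test, against 8.25% and 11.6% of all genes. Whether these markers bear on the values of the 10 genes was not tested.

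Whether the effect of genotype differed between muscles was tested as an interaction in the fit of 16 libraries. None of the 10 genes and 0 of 13749 genes, or 0%, were called by the quasi-likelihood test, with 671 genes or 4.88% at an unadjusted p under 0.05. Of the 10, *Fst* alone had an unadjusted p under 0.05, with a difference of 0.68 on the log2 scale, Sol over Gas (SE 0.291, unadjusted p = 0.0313, adjusted p = 0.987, edgeR), and 0.46 without WT Gas replicate 3. The difference was 0.47 for *Mstn* (95% interval -0.78 to 1.73), 0.86 for *Fstl3* (-0.32 to 2.05) and -1.78 for *Gdf5* (-3.93 to 0.38), and all of these intervals include 0. With any one library left out, *Mstn* had 0.26 to 0.83, lowest without LSD1-mKO Gas replicate 1 and highest without WT Sol replicate 2, and *Fstl3* had 0.54 (without LSD1-mKO Sol replicate 3) to 1.13. *Gdf5* moved most, to -5.74 without WT Gas replicate 3 and to -0.99 without WT Gas replicate 1. The other 6 genes had differences from -0.40 to 0.67, and without WT Gas replicate 3 from -0.65 to 0.30, with a change of sign in *Acvr2b*, *Id1* and *Id3*. DESeq2 called 0 of the 10 genes, and limma voom called 1, *Gdf5* (-3.57, adjusted p = 0.0241).

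The 10 genes were set among 79 genes of the pathways, in 7 lists of ligands, receptors, antagonists, proteases, Smads and target genes. Between genotypes 0 of 71 tested pathway genes were called by edgeR in Gas and 0 of 73 in Sol, against 0.0307% and 0.967% of all genes. At an unadjusted p under 0.05 there were 6 in Gas and 14 in Sol, against 9.06% and 15.5% of all genes. By list, the share in Sol ran from 0% for BMP ligands to 54.5% for antagonists (6 of 11, *Fstl3* among them), and no set test was run. DESeq2 called 0 and 4, and limma voom 1 and 4. The median log2 difference of the tested pathway genes was -0.058 in Gas, beside 0.010 over all genes, and 0.028 in Sol, beside -0.011. The smallest adjusted p, 0.0544 (edgeR), was that of *Ltbp3* in Sol, a binding protein of latent TGF-beta. *Ltbp3* was a call there with no filter, by DESeq2, limma voom and the exact test, with the ribosomal covariate and with all 16 libraries in 1 fit. It was no call with RLE scaling, and with 1 library left out it passed only without LSD1-mKO Sol replicate 4 or 5.

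Between muscles more pathway genes passed. In WT, 7 of 74 did, 3 higher and 4 lower in Sol, against 17% of all genes. Their number was 2 without WT Sol replicate 1 or 3, 4 when either WT Gas replicate 1 or LSD1-mKO Sol replicate 4 was dropped, and 11 on dropping WT Sol replicate 2. Smad regulator genes were among the higher ones: the ubiquitin ligase gene *Smurf1* had a log2 difference of 0.72 (adjusted p = 0.0414, edgeR) and the Smad corepressor gene *Skil* of 0.72 (adjusted p = 0.0424). Lower in Sol were *Bmper*, a BMP-binding protein, at -1.45 (adjusted p = 0.0120) and the BMP co-receptor gene *Rgma* at -0.79 (adjusted p = 0.0414). With single libraries left out, the call of *Smurf1* was lost in 10 of 16 fits, those of *Skil* and *Rgma* in 9 and that of *Bmper* in 2. With ribosomal protein level as covariate *Smurf1* had 0.14 (adjusted p = 0.637), *Skil* 0.31 (adjusted p = 0.455) and *Bmper* -1.12 (adjusted p = 0.0959), none of them a call, and with no filter on low counts *Smurf1*, *Skil* and *Rgma* were no calls (adjusted p = 0.0650 to 0.0697). The median of the 74 genes was -0.079, beside -0.013 over all genes.

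In LSD1-mKO, 20 of 74 passed, 13 higher and 7 lower in Sol, against 24.5% of all genes, a share near that of the pathway genes. The matricellular TGF-beta target *Ctgf* had a log2 difference of 1.33 (adjusted p = 0.00226, edgeR), the secreted *Fstl1* 1.22 (adjusted p = 0.00245) and the TGF-beta ligand gene *Tgfb3* 0.79 (adjusted p = 0.00675). The corepressor gene *Tgif1* had -1.71 (adjusted p = 0.00364), the type I receptor gene *Acvr1b* -1.22 (adjusted p = 0.0417) and *Bmper* -0.91 (adjusted p = 0.0236). Without LSD1-mKO Gas replicate 3, the highest Gas library of its group in this gene, *Tgif1* had -1.06. With ribosomal protein level as covariate *Tgfb3* had 0.45, and *Bmper* had -0.69 and was no call (adjusted p = 0.109). The call of *Acvr1b* was lost in 6 and that of *Bmper* in 3 of the 16 fits with a library left out. Of the antagonists 5 of 11 passed, *Fstl3* among them, of the receptors 4 of 17 and of the myostatin and activin ligands 4 of 9. So did 1 of 8 BMP ligands, 1 of 5 proteases, 4 of 16 Smads and their regulators and 2 of 13 target genes. These counts are to be read against the same 24.5%. The median of the 74 genes was -0.038, beside a median of all genes that rounds to 0. The WT and LSD1-mKO contrasts differ in the number of libraries, and no pathway gene was called in the interaction by edgeR.

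**Figure D5:**
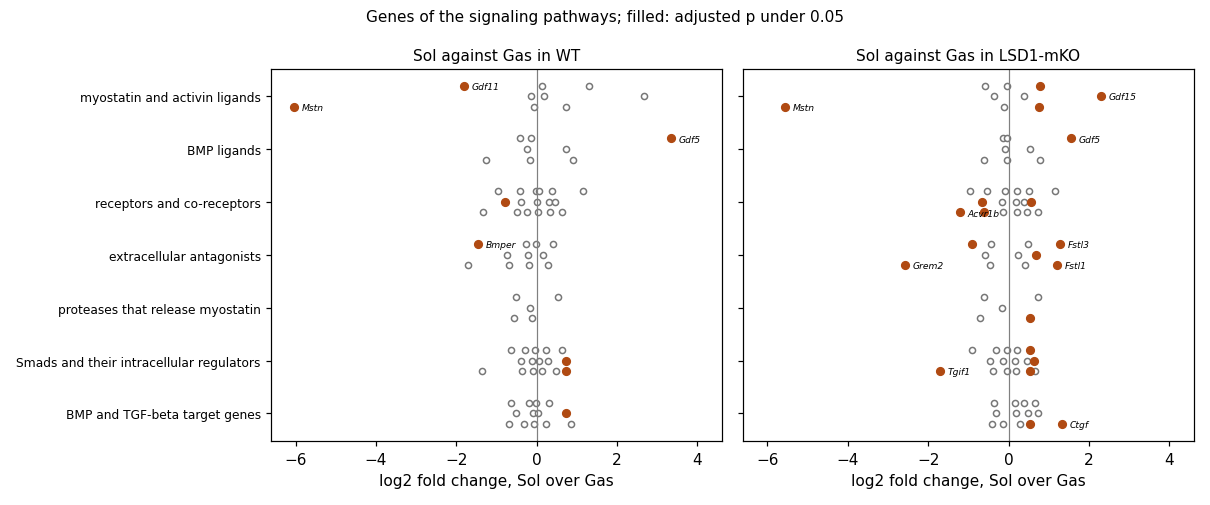
Log2 fold change of Sol over Gas (x axes) for the genes of the 7 pathway lists (y axis) in WT and LSD1-mKO, with filled points where the adjusted p was under 0.05 and names where such a gene was beyond 1.2. In both genotypes *Mstn* lies far from all others, at -6.03 and -5.56.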

How the data were processed

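Per the labels, poly(A) RNA was sequenced with 75 bp single-end reads and aligned by the authors to mm10 with STAR. Per the file headers, the authors counted reads per gene with featureCounts 1.5.2 over the exons of the UCSC annotation, with no strand option named and with reads that map to several places or genes left out. The deposited tables hold raw read counts, 1 table per muscle, and 0 columns belonged to other samples. Deposited tables of the authors' comparisons (log2 fold change, log2 CPM, p-value, adjusted p-value) were not used. Groups come from the labels.

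Tests used R 4.3.3 with edgeR 4.0.16 and, for one alternative, limma 3.58.1. Genes were kept by filterByExpr (minimum count 10), scaled by TMM and tested by the two-sided quasi-likelihood F-test, per muscle for genotype and over the 16 libraries for muscle and interaction. Benjamini-Hochberg adjustment ran over all genes tested, and an adjusted p under 0.05 was a call. Groups are given as mean ± SD of CPM, and SE is that of the log2 difference. Gene positions and exon lengths come from the GENCODE annotation of GRCm38.

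The members, lists, tests and alternatives were chosen with earlier results of these data known, and 1 gene was removed from the pathway lists afterwards and is not reported here. Named genes are the 10 members, *Kdm1a*, pathway genes called between genotypes, the 3 largest called increases and decreases between muscles averaging 50 or more reads a library, and the 5 nearest profiles of *Mstn* and *Id1*. In LSD1-mKO, Gas and Sol libraries of the same number deviated together from their group means. The correlations were 0.212 to 0.359, with 5 of 5 over 0.1 and each highest with its own number. A replicate block by number was therefore run as an alternative, and the main fits, with no block, treat these libraries as independent. Alternatives were RLE scaling, no filter, DESeq2 1.42.0, limma voom with quality weights, the exact test, a ribosomal covariate, a replicate block, all 16 libraries in 1 fit, and libraries left out. The scripts were tested on simulated data.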

Additional observations from a re-analysis of the deposited data

Results flagged for a closer look

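In groups of 5 libraries, 40 sets of values were searched for a library far from its group. They came from the 10 genes, *Kdm1a* and the pathway genes picked by the naming rule. Except for *Id3*, the nearest profiles of *Mstn* and *Id1* were not searched. About 1 in 20, or 2, would be picked out by chance, and 3 were. None was one of the 10 genes. *Tgif1* was 45.5 CPM in LSD1-mKO Gas replicate 3 and 8.55 to 13.8 in the other 4 libraries, a gap of 0.859 of the range, and without that library its log2 difference between LSD1-mKO muscles was -1.06 instead of -1.71. *Smurf1* was 48.6 CPM in LSD1-mKO Sol replicate 3 and 34.8 to 38.3 in the others, a gap of 0.748. *Bmper* was 7.72 CPM in LSD1-mKO Sol replicate 1 and 2.65 to 3.97 in the others, a gap of 0.740.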

How the results depend on the processing

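Of 316 values recomputed under another setting, 288 kept their direction and side of the threshold, 14 lost and 11 gained a call, and 3 changed sign. Those sign changes were *Id1* in Gas (0.11 by limma voom) and *Acvr2a* in Sol (-0.12 by limma voom, -0.0073 with the replicate block). Of 536 values with 1 library left out, 57 lost and 6 gained a call and 8 changed sign, within ranges of -0.78 to 0.10 for *Id1* in Gas, and in Sol of -0.52 to 0.040 for *Mstn*, -0.23 to 0.26 for *Acvr2a*, -0.21 to 0.029 for *Fst* and -0.59 to 0.17 for *Gdf5*. For members given in the text only by a range, sign changed in 13 of 176 values between WT muscles, 2 of 88 between LSD1-mKO muscles and 19 of 132 in the interaction, left-out libraries included. Members called in Sol between genotypes numbered 1, against 0, by DESeq2 and the exact test (*Fstl3*). The replicate block also called *Fstl3* (1.68, adjusted p = 0.0363). Between genotypes that block matches WT with LSD1-mKO libraries by numbers that did not pair them. It leaves LSD1-mKO Sol replicates 4 and 5 without a WT partner, so its call is no check of the genotype difference. Between LSD1-mKO muscles they numbered 5 by DESeq2 and 5 by limma voom, against 3, and 2 to 5 with 1 library left out. Between WT muscles they numbered 1 to 2 with 1 left out. In the interaction 1 was called by limma voom.

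Pathway genes called numbered 1 by limma voom in Gas, and in Sol 4 by DESeq2, 4 by limma voom and 2 with the ribosomal covariate, against 0. Between WT muscles they numbered 12, 25 and 13 under those settings, against 7, and in the interaction 2 by limma voom, against 0. Over all genes, calls in Gas numbered 4, but 132 by DESeq2, 340 by limma voom, 103 by the exact test, 10 with no filter, 62 with all libraries in 1 fit and 1 to 7 with 1 library left out. In Sol they numbered 129, but 605, 730, 558, 336 with no filter, 274 with the covariate and 412 with the block, and 13, 23 and 11 without WT Sol replicate 1, 2 or 3, 35 and 67 without LSD1-mKO Sol replicate 2 or 3 and 228 without LSD1-mKO Sol replicate 5. In the interaction they numbered 0, but 21 by DESeq2, 103 by limma voom and 1 with the block, and between WT muscles 2337, but 5599 by limma voom and 1132 and 1199 without WT Sol replicate 1 or 3. The cause was not tested. Leaving out both Gas libraries with high ribosomal levels called 0 members in Gas.

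WT numbers did not pair Gas with Sol (correlations -0.515 to 0.123), nor WT with LSD1-mKO (-0.160 to 0.307). With the replicate block, members called numbered 0 in Gas, 2 between WT muscles, 3 between LSD1-mKO muscles (*Mstn*, *Fstl3* and *Acvr2b*, the last in place of *Gdf5*) and 0 in the interaction. *Kdm1a* in Gas was -1.51 with an adjusted p of 0.226 under this block, which there matches WT with LSD1-mKO libraries by number. *Gdf5*, with 0 to 6 reads in a Gas library, had too few reads to be tested between genotypes in Gas.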
